A study of Mus musculus with 2 samples.

Results

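The genes described here are 10 antiviral effectors that cells make in response to interferon, namely Ifit1, Ifit2, Ifit3, Ifit3b, Oas1a, Oas2, Oas3, Oasl1, Oasl2 and Rsad2. They were taken by gene name from the expression tables of an RNA-seq experiment, and each name matched 1 of the 44291 genes listed. The cells were wild-type (WT) primary fibro-adipogenic progenitors (FAPs), which live between the fibres of skeletal muscle in the mouse and can become adipocytes. One culture was treated with platelet-rich plasma (PRP) and the other with vehicle as control, and both then received adipogenic induction medium, whose agents were insulin (10 μg/ml), dexamethasone (0.25 μM) and IBMX (0.5 mM) over 20% serum (FBS). PRP is the only treatment in the labels. The study, by contrast, gives exosomes from the PRP of young human donors as the treatment of the FAPs in its transcriptome experiment. Which of these the cells received cannot be told apart here. The labels give neither the age or number of the mice nor the duration of the treatment. There was 1 library per group, so no difference below has a replicate check.

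Type I interferons bind a receptor made of IFNAR1 and IFNAR2, whose kinases JAK1 and TYK2 activate STAT factors. A complex that holds STAT2 and IRF9 binds the interferon-stimulated response element (ISRE) in the promoters of many genes. The effectors described here act on foreign RNA and on nucleotides. IFIT proteins, IFIT1 foremost, bind RNA whose cap lacks the methyl marks of host mRNA. OAS proteins sense double-stranded RNA and make short oligoadenylates, which act as antiviral second messengers. Viperin, the product of Rsad2, is a radical SAM enzyme that turns CTP into a nucleotide that stops RNA synthesis by viral polymerases.

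The genes lie in 4 places in the mouse genome, given here on mm10 from GENCODE release M21. The IFIT genes sit within 99316 bases of chromosome 19, in the order Ifit2 (34550694 to 34576419), Ifit3 (34583531 to 34588731), Ifit3b (34607970 to 34613401) and Ifit1 (34640871 to 34650009), all on the plus strand. Oas2 (120730333 to 120749853), Oas3 (120753098 to 120777661) and Oas1a (120896256 to 120907521) lie on the minus strand of chromosome 5. Oasl2 (114896936 to 114912234) and Oasl1 (114923240 to 114937915) lie on the plus strand elsewhere on chromosome 5. Rsad2 (26442746 to 26456452) is on the minus strand of chromosome 12. All 10 are annotated as protein-coding.

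The ISRE was searched for in the RefSeq promoter windows (GRCm38.p6) of these genes, because the STAT2 and IRF9 complex binds it in many promoters. A window runs from 250 bases before to 50 bases after a transcription start. The motif searched was GAAANNGAAA on either strand, which reads TTTCNNTTTC on the opposite strand, and overlapping matches were counted separately. A window was found for 9 of the 10 genes, Oas2 being without one, and 6 of the 9 held the motif: Ifit1, Ifit3, Ifit3b, Oas1a, Oas3 and Rsad2. Of all 32851 windows 3.44% held it, and of the 27025 genes with a window 3.99% did. Ifit2, Oasl1 and Oasl2 had no match in their windows, which says only that these letters are not there. The stretches of 30 bases around the matches are shown 5′ to 3′ on the strand of the gene, with the motif in capitals, so that the copies can be compared.
Ifit1, chr19:34640785-34640814: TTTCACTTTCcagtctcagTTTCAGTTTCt
Ifit3, chr19:34583363-34583392: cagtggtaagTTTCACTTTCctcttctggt
Ifit3, chr19:34583397-34583426: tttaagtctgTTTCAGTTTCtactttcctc
Ifit3b, chr19:34607759-34607788: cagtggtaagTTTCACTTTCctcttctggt
Ifit3b, chr19:34607793-34607822: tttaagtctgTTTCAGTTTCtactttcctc
Oas1a, chr5:120907523-120907552: ttctcggGAAATGGAAACTGAAAatctact
Oas1g, chr5:120887609-120887638: ttctcggGAAATGGAAACTGAAAatctact
Oas3, chr5:120777715-120777744: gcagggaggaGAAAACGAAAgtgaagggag
Rsad2, chr12:26456553-26456582: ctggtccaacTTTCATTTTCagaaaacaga

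Ifit1, Ifit3, Ifit3b and Oas1a each held 2 matches, and 0.225% of all windows held at least 2. In Oas1a and in its neighbour Oas1g, a copy shown for comparison, the matches overlap. The stretches of Ifit3 and Ifit3b were the same letter for letter, and so were those of Oas1a and Oas1g. Aligned on the first match without gaps, the windows of Ifit3 and Ifit3b had the same base at 201 of 268 positions, and those of Oas1a and Oas1g at 207 of 298. The matches began 104 and 85 bases before the start of Ifit1, 156 and 122 before that of Ifit3, 188 and 154 before that of Ifit3b, 20 and 14 before that of Oas1a, 75 before that of Oas3 and 120 before that of Rsad2. The pair in front of Ifit1 also lies 70 and 51 bases before the start of Ifit1bl2, which is read in the opposite direction from the same stretch.

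**Figure D1:**
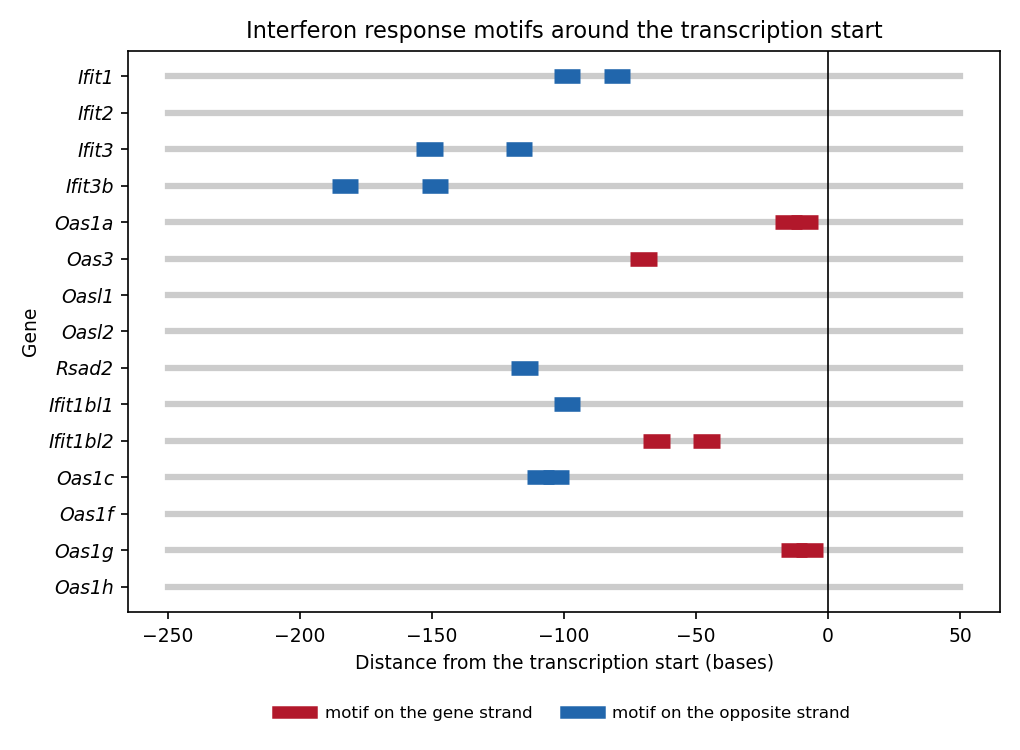
Position of ISRE matches (blocks) in the promoter window of each IFIT, OAS and viperin gene, with the distance from the transcription start in bases on the horizontal axis and 1 gene per line. For a gene with more than 1 window the first is drawn, and genes without a window are left out; the matches of Oas1a and Oas1g lie nearest to the start, at 20 bases or fewer.

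The values are FPKM, that is reads scaled to the exon length of a gene and to the assigned reads of its library, so levels can be compared between genes. The PRP library held 40120843 assigned reads and the control library 34139741. Reads per gene could be worked out from the FPKM, and the 10 genes had 195 to 19194 reads after PRP and 28 to 6526 in the control. Beside each FPKM ratio stands its exact Clopper-Pearson 95% interval, computed on fragments of 2 reads. It covers counting error only and compares 2 libraries, not 2 treatments. The log2 fold change is the difference of log2(FPKM + 1), PRP minus control, and it was compared with 2-fold for genes whose mean FPKM reached 1, called tested genes here. That mean is taken over the 2 libraries compared. A gene below 1 FPKM in the control is therefore tested only if its PRP value is high enough.

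All 10 genes were higher in the PRP library, and each interval of the ratio lay above 1. Of all 13401 tested genes 50.9% were higher by any amount. The summed FPKM of the 10 genes was 392.2 after PRP and 157.6 in the control, a ratio of 2.49, or 0.114% and 0.0464% of all FPKM. Of the 9 tested genes 5 were at least 2-fold higher on the log2(FPKM + 1) scale, namely Ifit1, Ifit3b, Rsad2, Ifit3 and Oasl1, against 2.00% of all 13401 tested genes. Oas3 had a mean FPKM of 0.402 and was not tested. Rsad2 (0.392 FPKM in the control) and Oas2 (0.750 FPKM in the control) were tested only through their PRP values. The median log2 fold change of the 9 genes was 1.16, and that of all tested genes was 0.01. Counted by interval, all 9 lay above 1, as did 26.2% of the 12367 tested genes with whole reads. These were 3234 genes, and 3225 others had an interval below 1, so an interval apart from 1 is common between these libraries. The set was chosen with earlier results of these data known. Its contrasts with all tested genes are therefore a description and not independent evidence. In a bulk library, a larger share of responding cells and more RNA per cell cannot be told apart.

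**Figure D2:**
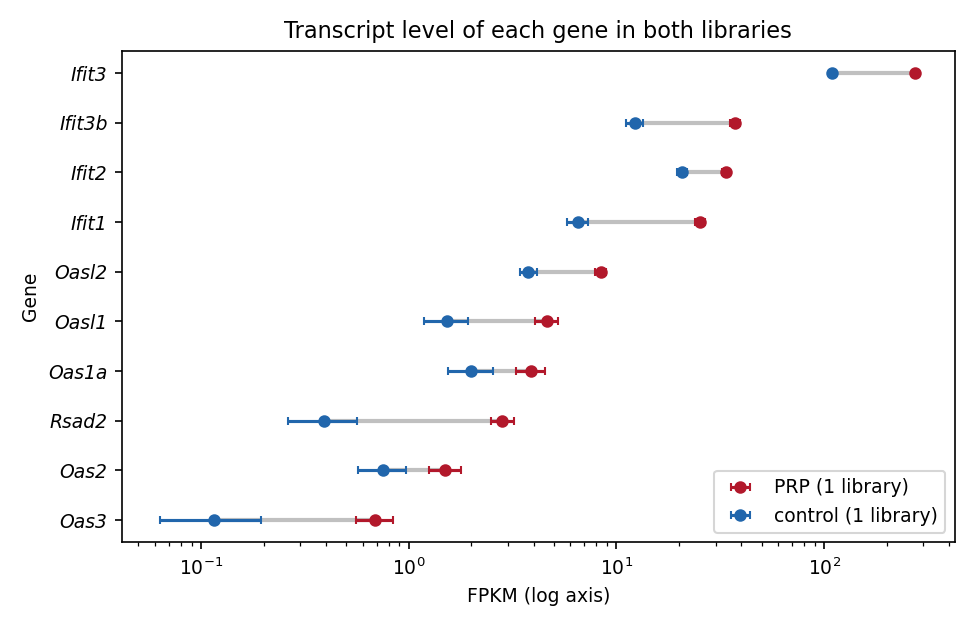
FPKM of each gene in the PRP library (red) and the control library (blue) on a log axis, with exact Poisson 95% intervals of counting error and a grey bar joining the 2 values of a gene. The red point lies to the right of the blue point for all 10 genes, and Ifit3 is the most abundant in both libraries (274.2 and 109.5 FPKM).

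The IFIT genes carried most of this signal, with 94.4% of the summed FPKM of the 10 genes after PRP and 94.6% in the control. Ifit3, whose protein is known to bind other IFIT proteins, was the most abundant, at 274.2 FPKM after PRP and 109.5 in the control (ratio 2.5, interval 2.40 to 2.60). It ranked 175th of all genes by level after PRP and 471st in the control. Its copy Ifit3b had 37.2 and 12.3 FPKM (ratio 3.04, interval 2.72 to 3.39). Ifit3 thus stood 7.36-fold above Ifit3b after PRP and 8.94-fold above it in the control. The copies are alike in much of their length, and 51.2% of the 50-base words in Ifit3 transcripts also occur in Ifit3b. Reads from these stretches cannot be placed with certainty, so the split between the copies is uncertain. With their reads summed, 22181 and 7363, the ratio was 2.56 (interval 2.47 to 2.66).

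Ifit1 and Ifit2 moved by unequal amounts. Ifit1, which binds RNA with an incompletely methylated cap, had 25.3 FPKM after PRP and 6.53 in the control, with 2701 and 592 reads. Its ratio of 3.88 (interval 3.42 to 4.42) gave the largest log2 fold change of the 9 tested genes, 1.81, which ranked 38th of 13401. Ifit2, an IFIT protein that binds AU-rich RNA, had 33.5 and 20.7 FPKM, with 5285 and 2772 reads. Its ratio of 1.62 (interval 1.52 to 1.73) was the lowest of the 10, and its log2 fold change was 0.67, under the 2-fold call. The intervals of Ifit1 and Ifit2 did not overlap, and Ifit1 reached 0.756 of the level of Ifit2 after PRP against 0.316 in the control. No part of the exons of the 4 IFIT genes overlaps an exon of another annotated gene. Of the 50-base words of Ifit1, 7.13% are shared with other genes, mostly Ifit1bl2, and none of Ifit2.

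The OAS genes were expressed at lower levels. Oas1a, an oligoadenylate synthetase, had 3.87 FPKM after PRP and 2.00 in the control, from 293 and 129 reads (ratio 1.93, interval 1.43 to 2.63). Oas2 had 1.5 and 0.750 FPKM, from 268 and 114 reads (ratio 2.00, interval 1.46 to 2.78). Neither gene reached 2-fold on the log2(FPKM + 1) scale, with values of 0.70 and 0.51. Oas3, the member known to respond best to long double-stranded RNA, stood at 0.688 and 0.116 FPKM, from 195 and 28 reads. Its ratio of 5.93 (interval 3.37 to 11.2) was among the largest of the 10, but its log2 fold change was only 0.60, because the pseudocount of 1 exceeds both of its values. Oas1a shares 57.6% of its 50-base words with Oas1g, so that its value is uncertain. With the reads of both copies summed the ratio was 1.99 (interval 1.51 to 2.62).

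The OAS-like genes were intermediate. Oasl1, which lacks synthetase activity and is known to hold back translation of Irf7 mRNA, had 4.64 FPKM after PRP and 1.53 in the control (485 and 136 reads; ratio 3.03, interval 2.31 to 4.03). Oasl2, which has kept synthetase activity in the mouse, had 8.42 and 3.77 FPKM (2153 and 821 reads; ratio 2.23, interval 1.99 to 2.51). The log2 fold change was 1.16 for Oasl1 and 0.98 for Oasl2, which put Oasl2 just under the 2-fold call. The intervals of Oasl1 and Oasl2 overlapped. Neither shares more than 0.138% of its 50-base words with another gene, and 1.46% of the exon length of Oasl1 lies opposite the gene Gm13822.

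Rsad2 had the largest ratio of the 10 genes. Its FPKM was 2.82 after PRP and 0.392 in the control, from 491 and 58 reads, a ratio of 7.20 (interval 4.89 to 11.0). It ranked 17th by ratio among the tested genes and 95th by log2 fold change (1.46). Rsad2 was tested only through its PRP value, since its control value lay below the minimum. No 50-base word of Rsad2 occurs in another gene. Cmpk2, a mitochondrial nucleotide kinase gene beside Rsad2 on chromosome 12, had 1.47 and 0.183 FPKM, from 245 and 26 reads (ratio 8.02, interval 4.52 to 15.5), and was not tested because its mean FPKM was 0.825. The intervals of Rsad2 and Cmpk2 overlapped, and the level of Rsad2 was 1.92 times that of Cmpk2 in the PRP library and 2.14 times in the control library. Ciao1, which helps to insert the iron-sulfur cluster that viperin needs, had 9.18 and 8.76 FPKM (ratio 1.05, interval 0.928 to 1.19).

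**Figure D3:**
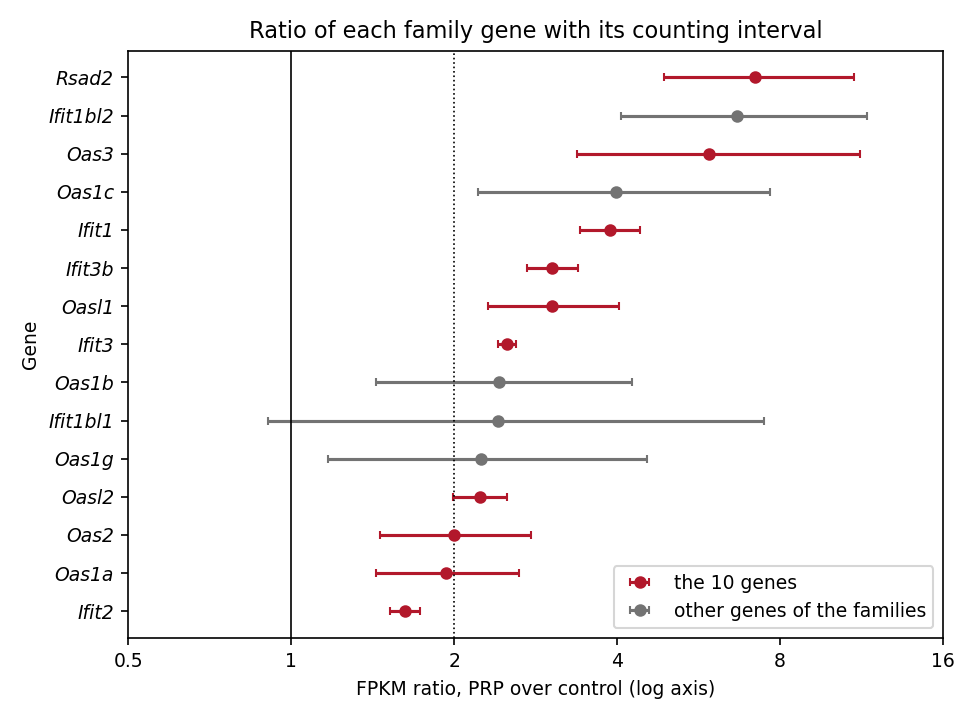
FPKM ratio of PRP over control on a log axis, with exact Clopper-Pearson 95% intervals of counting error, for the 10 genes (red) and the other IFIT and OAS genes with reads in the control library (grey). The solid line marks no change and the dotted line a ratio of 2; the 10 genes range from 1.62 for Ifit2 to 7.20 for Rsad2.

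By level, the order of the 10 genes was nearly the same in both libraries. In the PRP library it ran Ifit3, Ifit3b, Ifit2, Ifit1, Oasl2, Oasl1, Oas1a, Rsad2, Oas2 and Oas3. In the control library Ifit2 stood above Ifit3b, Oas1a above Oasl1 and Oas2 above Rsad2. Oas1a and Oasl1 were the only neighbours whose Poisson intervals overlapped, in both libraries. By ratio the order was Rsad2, Oas3, Ifit1, Ifit3b, Oasl1, Ifit3, Oasl2, Oas2, Oas1a and Ifit2. Of the 9 pairs of neighbours in that order, the intervals were apart only between Ifit1 and Ifit3b. An FPKM ratio of at least 2 was found for 8 of the 10 genes, and for 7 of the 9 tested ones, against 3.72% of 13392 tested genes above 0 in the control library. Among the 7 are Rsad2 and Oas2, which reached the minimum mean FPKM only through their PRP values. As above, the set was chosen with earlier results known. The whole interval lay above 2 for 6 genes, Rsad2, Oas3, Ifit1, Ifit3b, Oasl1 and Ifit3, of which Oas3 was not a tested gene. The share of all tested genes with such an interval was not worked out, so this count has no background beside it.

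**Figure D4:**
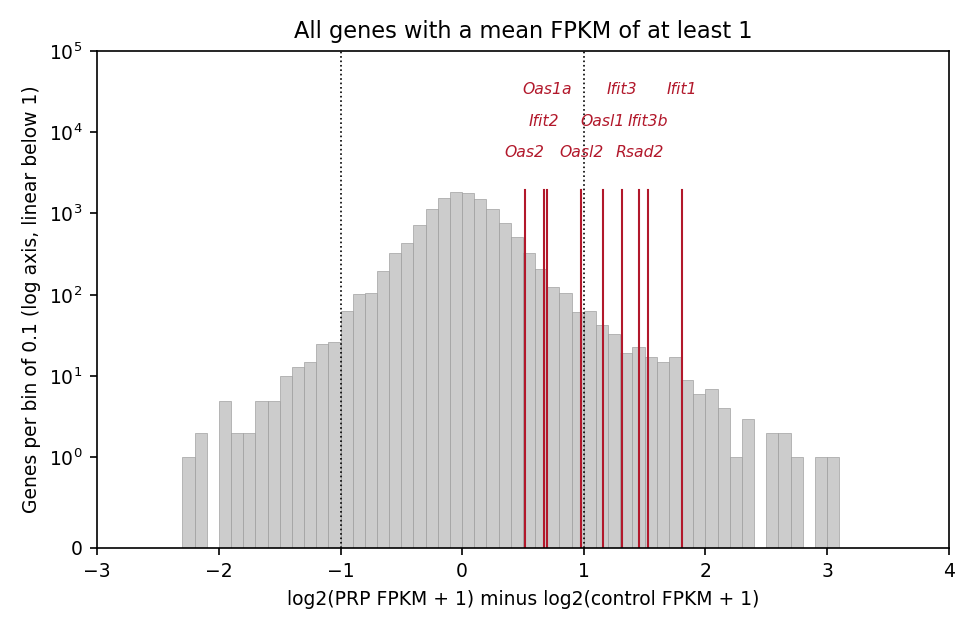
Number of genes per bin of log2 fold change on the log2(FPKM + 1) scale, for all 13401 tested genes (grey bars, with a vertical axis that is logarithmic above 1), and the 9 tested genes of the set (red lines). Dotted lines mark 2-fold; the red lines run from 0.51 for Oas2 to 1.81 for Ifit1, all on the side of higher levels in the PRP library.

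The other IFIT and OAS family genes had levels within or below the range of the less abundant OAS genes and Rsad2. Of 9 other family genes only Ifit1bl2 and Oas1b reached a mean FPKM of 1, both through their PRP values. Ifit1bl2 had 2.09 FPKM after PRP and 0.313 in the control (ratio 6.67, interval 4.07 to 11.6), and was at least 2-fold higher. Oas1b, annotated as a polymorphic pseudogene, had 1.43 and 0.588 FPKM (ratio 2.43, interval 1.43 to 4.26). The intervals of Oas1c (1.36 and 0.341 FPKM; ratio 3.98, interval 2.21 to 7.68) and Oas1g (0.756 and 0.338 FPKM; ratio 2.24, interval 1.17 to 4.55) also lay above 1. The 34 and 12 reads of Ifit1bl1 gave an interval from 0.907 to 7.47, which includes no change. Oas1f and Oas1h had 2 and 3 reads after PRP and 0 in the control, too few for a ratio. Oas1d and Oas1e had 0 reads in both libraries, a count that allows up to 3 fragments in each.

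The nearest tested protein-coding genes were compared as a description of the region, although they lay 4243 to 2193150 bases away, and at least 1345606 bases away for Rsad2. Taken 2 on each side of every cluster and of Rsad2, they had ratios between 0.724 (Id2) and 1.73 (Ch25h). Those next to the OAS cluster, Ddx54 and Ptpn11, had ratios of 0.968 (interval 0.915 to 1.02) and 0.919 (0.885 to 0.953). Around the OAS-like genes, 1500011B03Rik had a ratio of 0.826 (0.655 to 1.04) and 2210016L21Rik one of 1.37 (1.26 to 1.49). Around the IFIT cluster, Kif20b, 272352 bases away, was lower (0.819, 0.761 to 0.882) and Rpp30, 1433707 bases away, had a ratio of 1.32 (1.13 to 1.54), while Lipa, which encodes lysosomal acid lipase and lies 23220 bases from Ifit2, was higher (1.64, 1.46 to 1.85), as was Ch25h, which makes an oxysterol (1.73, 1.24 to 2.44). Lipa was therefore as high as Ifit2 by ratio, and their intervals overlapped.

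Genes that break down oligoadenylates, or that set the cap marks IFIT1 reads, were listed beside the set. Pde12, which degrades oligoadenylates, had 1.44 and 1.05 FPKM (ratio 1.37, interval 1.10 to 1.70). Of the cap methyltransferases, which mark host RNA so that IFIT1 passes it over, Cmtr1 had a ratio of 1.16 (1.10 to 1.23), Rnmt one of 1.18 (1.07 to 1.30) and Cmtr2 one of 1.73 (1.24 to 2.44). The intervals of Pde12 and of the 3 methyltransferase genes lay above 1, and none of these genes reached 2-fold.

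The steps upstream were then compared, from ligand to transcription factor. Of 21 interferon genes listed, 7 had a row, the other 14 not being analysed here, and none reached a mean FPKM of 1. Ifnb1, the type I interferon that most cells can make, had 6 reads after PRP and 2 in the control. Its interval of 0.205 to 134 allows no statement. Ifnz had 12 and 2 reads (interval 0.619 to 235) and Ifne 2 and 0. Ifna4, Ifna16, Ifnab and Ifng had 0 reads in both libraries. The receptor genes Ifnar1 (5.39 and 5.37 FPKM; ratio 1.0, interval 0.894 to 1.13) and Ifnar2 (13.1 and 11.4 FPKM; ratio 1.15, interval 1.04 to 1.27) were both expressed. None of the 10 tested receptor and signalling genes reached 2-fold, and their median log2 fold change was 0.19.

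Genes of the complex that binds the ISRE were compared next. Stat2 had 40.1 and 24.3 FPKM (ratio 1.65, interval 1.57 to 1.73) and Irf9 13.2 and 8.61 FPKM (ratio 1.53, interval 1.40 to 1.67). Their intervals overlapped, and neither gene reached 2-fold. Irf7, itself induced by interferon and needed for the interferon genes, had 11.6 and 3.18 FPKM (ratio 3.65, interval 3.13 to 4.27). Irf1 had 15.4 and 6.06 FPKM, with no interval because its reads could not be worked out. Irf7 and Irf1 were the 2 of 8 tested sensors and IRFs that were at least 2-fold higher. The double-stranded RNA sensors Rigi (ratio 1.34, interval 1.24 to 1.46), Ifih1 (1.34, 1.19 to 1.51) and Dhx58 (1.88, 1.56 to 2.27) stayed under it. Tlr3, another such sensor, had a ratio of 0.974 (0.708 to 1.34) and was not tested. In this list 3 of the 8 tested genes had a ratio below 1, among them Irf3 (0.896, 0.750 to 1.07) and the adaptor gene Mavs (0.787, 0.679 to 0.912), the 1 whose interval lay below 1. Usp18, which shuts down signalling from IFNAR2, had 28.4 and 7.96 FPKM (ratio 3.56, interval 3.18 to 4.0), whereas Socs3 had a ratio of 1.15 (0.972 to 1.37).

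Other interferon-induced effectors served as a comparison. Of 18 listed, 16 were tested and 8 were at least 2-fold higher, with a median log2 fold change of 0.83 against 1.16 for the 9 genes of the set. The largest log2 fold changes among the tested ones were those of Mx2 (10.6 and 1.64 FPKM), Isg15 (159.6 and 35.7 FPKM), Zbp1 (16.2 and 3.39 FPKM) and Ifi44 (2.71 and 0.421 FPKM). Mx2, annotated as a polymorphic pseudogene, and Isg15, a ubiquitin-like modifier, have no interval because their reads could not be worked out. Mx1, an antiviral GTPase gene, had a larger FPKM ratio than these 4 (25.6, from 1.78 and 0.0695 FPKM) and was not tested because its mean FPKM was 0.926. Zbp1, a sensor of Z-form nucleic acids, had an interval of 4.12 to 5.58, and Ifi44 one of 4.69 to 9.03. Not all effectors were higher. The membrane proteins of the IFITM family differed little or were lower, with Ifitm3 at 331.1 and 311.7 FPKM (ratio 1.06, interval 1.02 to 1.11) and Ifitm2 at 18.1 and 22.9 FPKM (ratio 0.788, interval 0.658 to 0.944), and the exonuclease gene Isg20 had a ratio of 0.961 (0.780 to 1.18). In the plot by pathway step, the IFIT, OAS and viperin genes are all to the right of 0, while the other effectors run from -0.33 to 2.14.

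**Figure D5:**
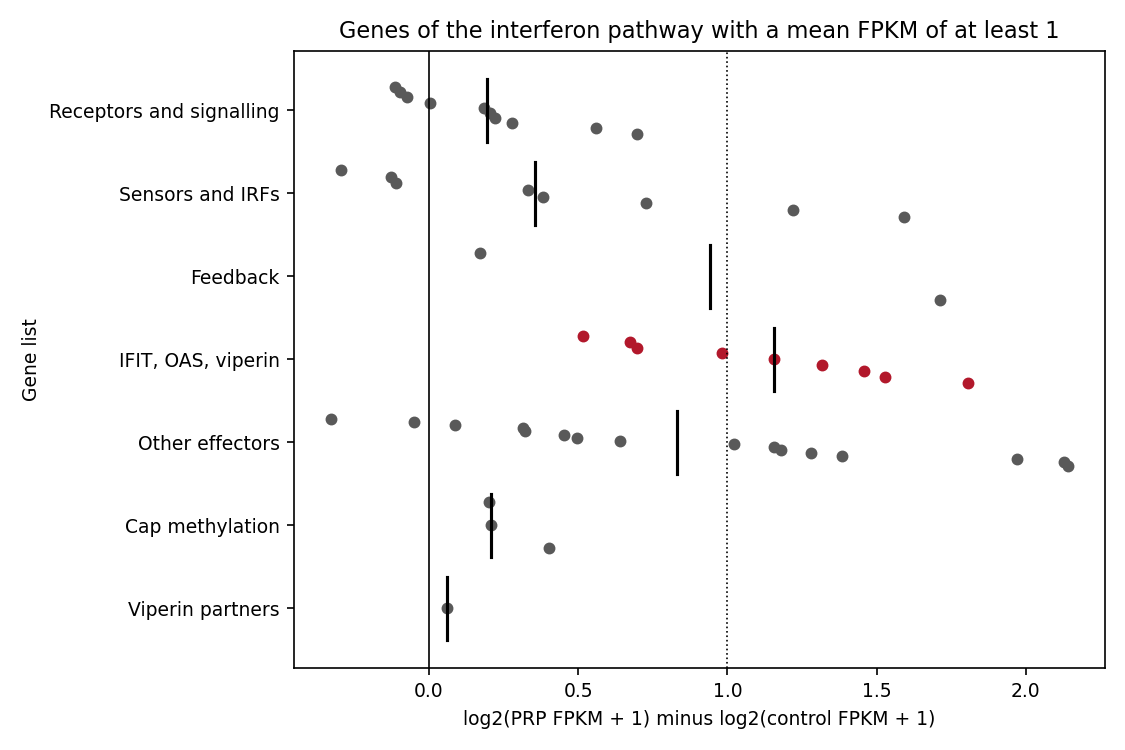
Log2 fold change on the log2(FPKM + 1) scale of every tested gene in 7 lists of the interferon pathway, 1 point per gene, with a black bar at the median of each list. The vertical solid line is no change and the dotted line 2-fold; the medians were 1.16 for the IFIT, OAS and viperin genes (red), 0.83 for other effectors and 0.19 for receptors and signalling.

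The motif was also set beside expression across all genes. Among 8655 tested genes with a promoter window, 317 held the ISRE, and 20 of these (6.31%) were at least 2-fold higher, against 1.19% of the genes without it. Ifit1, Ifit3, Ifit3b and Rsad2 of the set are among these 20, and so is their family gene Ifit1bl2. The median log2 fold change was 0.068 for tested genes with the motif and 0.005 for those without it. Tested genes without a window are left out of these comparisons. This is a description of 2 libraries to which the genes of the set contribute, and it does not show binding. Within the set, the genes with a match ran from a ratio of 1.93 (Oas1a) to 7.20 (Rsad2), and those without one from 1.62 (Ifit2) to 3.03 (Oasl1), so the ranges overlapped.

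The label of the cells and the presence of other cells were checked with marker genes. Of 9 FAP markers 7 were tested, among them Pdgfra (19.8 FPKM after PRP and 28.0 in the control) and Ly6a (59.9 and 66.4 FPKM), which encodes Sca-1. The largest differences were those of Dpt (18.8 and 50.2 FPKM; ratio 0.374, interval 0.341 to 0.410), the 1 marker at least 2-fold lower, Col3a1 (ratio 0.501, 0.484 to 0.518) and Col1a1 (ratio 0.542, 0.531 to 0.553). Lum and Pi16 were at no more than 0.0815 FPKM. Each of the 7 was lower after PRP, and the sum over all 9 was 256.4 against 431.5 FPKM. Leukocytes express IFIT and OAS genes strongly. Of 12 leukocyte markers 11 had a row, with summed levels of 10.8 FPKM in each library. Most of this came from Cd68 (4.56 and 2.31 FPKM) and Lyz2 (4.91 and 7.57 FPKM), while the pan-leukocyte gene Ptprc had 0.0109 and 0.0192 FPKM and Adgre1 0.0308 and 0.0543 FPKM. The intervals of 2 leukocyte markers lay above 1, those of Cd68 (ratio 1.98, interval 1.41 to 2.82) and Fcer1g (14 and 0 reads), and that of Lyz2 lay below 1 (0.648, 0.512 to 0.820). Summed levels were 9.45 and 5.38 FPKM for 5 endothelial markers, and 3 of their intervals lay above 1, those of Kdr (ratio 2.82, interval 2.43 to 3.28), Tek (1.33, 1.14 to 1.55) and Pecam1 (47 and 10 reads, interval 1.49 to 13.4). The defining gene Cdh5 was at 0.0949 and 0.0976 FPKM, and Emcn at 0.203 and 0.173 FPKM. Summed levels were 1.55 and 1.40 FPKM for 5 platelet markers and 0 and 0.0315 FPKM for the 3 myogenic markers with a row. Of the platelet markers only Itga2b (0.567 and 0.365 FPKM) had an interval above 1 (ratio 1.55, interval 1.01 to 2.43). The markers are mouse genes, while the blood donors of the study were human. What part these markers have in the levels of the 10 genes was not tested.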

How the data were processed

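RNA-seq libraries of 1 PRP-treated and 1 vehicle-treated FAP culture were compared. Per the labels, TRIzol was used for the RNA and a stranded kit for the libraries. Reads were trimmed by the authors (fastp 0.23.4), aligned to mm10 (STAR 2.5.3a) and counted per gene (featureCounts). The deposited values are FPKM as the authors computed them. The annotation release, the strand setting and the step from counts to FPKM are not given in the sources used here.

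Exon lengths came from GENCODE M21. The smallest step of FPKM times length gave the total of assigned reads, and 93.8% of 28152 genes above 0 gave whole reads in each library (tolerance 0.001 reads). Even numbers were in excess (79.3% and 80.3% of genes with up to 8 reads), as when both mates are counted, so intervals used reads divided by 2. They cover counting error only and ignore PCR duplicates. The recovered reads were used for intervals and not for a count test.

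Log2 fold changes used a pseudocount of 1, which understates the change of low genes. No p-value is given, since each group has 1 library. Members and lists were chosen with earlier results of these data known. Some genes of the pathway are not reported here. All 10 members are named, with every gene of the lists of family, oligoadenylate and viperin partner genes, and the defining genes and up to 4 largest changes of the other lists. Neighbours, Irf3, Mavs, Mx1, the sensors apart from Dhx58, IFITM genes, Isg20 and the markers were named after their values were seen. Promoter sequences are from RefSeq. Python 3.11.15, NumPy 2.4.6, pandas 2.3.3, SciPy 1.17.1 and matplotlib 3.10.9 were used, and the procedures were tested on simulated data.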

Additional observations from a re-analysis of the deposited data

How the results depend on the processing

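All tested genes of the set were higher in the PRP library under every alternative tried, which were pseudocounts of 0.1 and 5, 2 rescalings, centring, a mean FPKM minimum of 0 or 5, thresholds of 1.5-fold and 4-fold, and merging of near-identical copies. Of 50 values of single genes under the scale and pseudocount alternatives none changed direction. A common pseudocount, an FPKM minimum or a fold threshold cannot change the direction of a gene, so these alternatives did not test it. The rescalings and centring could, but they moved the values little. The median log2 fold change of all tested genes was 0.01 as reported and between -0.02 and 0 under them. The pseudocount set how many reached 2-fold. At a pseudocount of 0.1 there were 6, against 3.51% of all tested genes. At a pseudocount of 5 there were 3, against 0.627%, and the median log2 fold change of the set was 0.59 in place of 1.16. For Rsad2 the log2 fold change ran from 0.54 to 2.57 and for Oas3 from 0.15 to 1.87. With the minimum raised to 5 FPKM, 3 of 5 genes reached 2-fold, against 2.19% of the 7033 genes then tested. At 1.5-fold 8 of 9 were called, against 6.15% of all tested genes, and at 4-fold 0, against 0.172%. The FPKM ratios of Rsad2 and Oas3 nevertheless exceed 4. Over all genes, those called higher numbered 268, and 471 at a pseudocount of 0.1, 84 at a pseudocount of 5, 154 with the minimum at 5 FPKM, 824 at 1.5-fold and 23 at 4-fold. Their share of all changed genes was 70.7%, 57.4% at 1.5-fold and 88.5% at 4-fold. The summed FPKM of the set was 2.46-fold higher without Ifit3, 2.46-fold higher after rescaling to a common sum and 2.43-fold higher when mitochondrial and the 50 most abundant genes were left out of the sum. No paired analysis was possible because there was a single library for PRP and 1 for the control. Depth limits the interferon genes, where 0 to 12 reads decide the values.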
